A study of Mus musculus with 30 samples.

Results

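Messenger RNA of 3T3-L1 cultures exposed to quizalofop-p-ethyl (QpE) for 6 h was compared with that of control cultures of the same age. The comparison takes the 10 libraries whose treatment label is either a control at 6 h or QpE at 0.05 mM for 6 h, 5 of each, out of 30 libraries in the series. The other 20 are controls and QpE cultures labelled 24 h and 12 days, in groups of 5. 3T3-L1 is a mouse embryonic fibroblast line that turns into fat cells under adipogenic hormones. Every culture at 6 h, controls included, had spent 2 days in a medium with fetal calf serum, 500 µM isobutylmethylxanthine (a phosphodiesterase inhibitor that raises cyclic AMP) and 100 nM insulin, and QpE was added at 50 µM when that medium was renewed. The protocol names dexamethasone as a positive control only, names no vehicle for the controls, and describes 6 further days of culture, fewer than the 12 day label, which is used as given. The labels give separate culture replicates, numbered 1 to 5 in each group, of 1 cell line in 96-well plates, so p-values measure the spread between cultures of that line.

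QpE is the ethyl ester of an aryloxyphenoxypropionate herbicide, a class that blocks acetyl-CoA carboxylase in the plastids of grasses. In preadipocytes, Cebpb and Cebpd act early and induce Pparg and Cebpa, and these switch on the genes of lipid storage. Preadipocyte genes such as Dlk1 fall as fat cells form. By its title the study concerns fat cell formation under QpE, and the 6 h cultures are its earliest time point.

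The labelled cell type, differentiated 3T3-L1, was set against marker genes. Here and below a difference is the QpE mean minus the control mean of log2(FPKM + 1), over the transcripts that carry the gene's name, and a value with the unnamed transcripts added also counts assembled transcripts of the same locus to which no gene name was given. Of 10 adipocyte markers, 7 reached 1 FPKM (fragments per kilobase of transcript, scaled to the mapped fragments of the library) in at least 5 of the 10 libraries, the level required for testing. Their summed level was 179 to 453 FPKM in controls and 117 to 503 with QpE, most of it from Lpl, a secreted lipase, and Fabp4, a fatty acid carrier. Lep, which encodes leptin, was close to 0 in both groups. Fibroblast and preadipocyte markers summed to 4447 to 6498 FPKM in controls and 4458 to 6399.9 with QpE, and 9 of 10 were tested. In every library the fibroblast sum stood above the adipocyte sum. Adipocyte marker differences ran from -0.31 for Cfd to 0.17 for Plin1 and fibroblast marker differences from -0.11 for Lum to 0.071 for Pdgfrb (-0.022 with the unnamed transcripts added), and none passed the test described next. No endothelial marker (of 5), epithelial marker (of 4) or brown fat marker (of 4) reached the level for testing, and Epcam and Cidea were at 0 in all 10 libraries. Of 6 macrophage markers 1 was tested, Cd14 (-0.14, or -0.019 with the unnamed transcripts added), while Adgre1 and Itgam were at 0 and the sum was 1.1 to 3.51 FPKM in controls and 0.627 to 3.06 with QpE. Of 6 muscle markers Des (0.055) and Acta2 (0.22) were tested, and Myod1 was at 0. In bulk RNA, fewer cells of a type and less RNA per cell cannot be told apart.

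No named gene passed the test at 6 h. The limma test on log2(FPKM + 1) of 15274 gene rows (11652 named genes and 3622 sums of the unnamed transcripts of a locus) called 1 row higher (0.00655% of those tested) and 0 lower (0%) at a Benjamini-Hochberg adjusted p under 0.05, two-sided. That row lies at Zfp652, and a test of single transcripts called 5, at Gpx1, Alad, Map1s, Clu and Atxn7l2. Without adjustment, 197 rows were higher (1.29%) and 265 lower (1.73%) at a p under 0.05, in all 462 where 764 would be 1 in 20 of the rows. With same-numbered cultures fitted as pairs, 560 rows had an unadjusted p under 0.05 and 0 were called. Groups stood wholly apart for 28 rows with QpE above (0.183%) and 41 with QpE below (0.268%). The median difference over all rows was -0.013 on the log2 scale, and 45.7% of rows lay above 0. The median half-width of the 95% interval was 0.35, so that 79.7% of rows had an interval wholly inside a 2-fold change either way and 60.9% inside 1.5-fold. Among named genes with a mean of at least 5 FPKM these shares were 91.4% and 78.2%. Differences on this scale understate the change of genes near 1 FPKM.

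**Figure D1:**
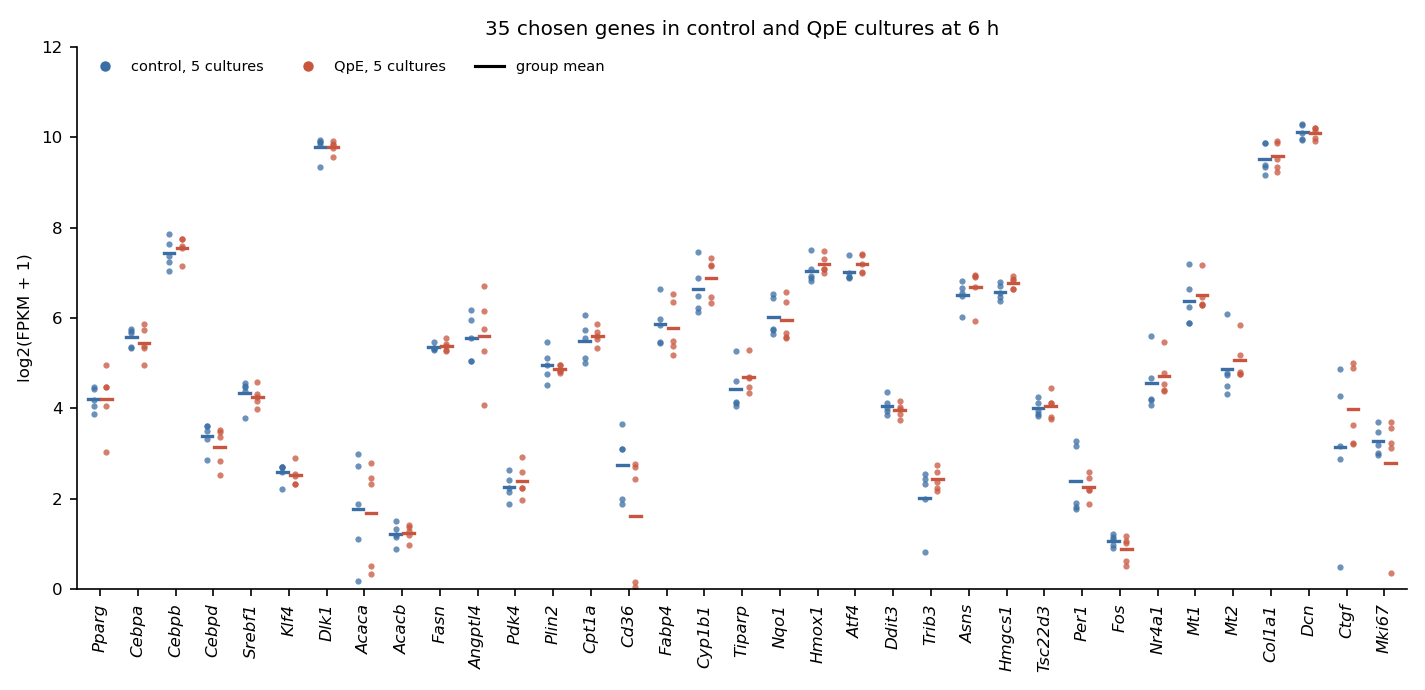
Levels of 35 chosen genes at 6 h as log2(FPKM + 1), summed over each gene's named transcripts, with 5 control cultures in blue, 5 QpE cultures in red and a bar at each group mean. The groups overlap for all 35 genes.

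The transcription factors of fat cell formation were measured at levels that a change could be read from, and none passed the test. Pparg, the receptor that commits cells to fat, had 15.7, 20.4, 13.7, 17.3 and 21.1 FPKM in control replicates 1 to 5 and 21.1, 21, 15.6, 7.21 and 30.2 in QpE replicates 1 to 5. Its lowest and highest values were both QpE cultures, and its log2 difference was -0.0075 (95% interval -0.70 to 0.69). With the unnamed transcripts of its locus added, the difference was 0.054 (-0.39 to 0.49), of the opposite sign. Cebpa, its partner, had 51.7, 53.4, 39.6, 40.1 and 50.2 FPKM in controls and 57.3, 51.9, 39.7, 30 and 40.7 with QpE, a difference of -0.12 (-0.50 to 0.26). For Cebpb, the early activator, control values of 151, 166, 231, 199 and 131 stood beside QpE values of 215, 142, 186, 191 and 214. All QpE values lay inside the control range, with a difference of 0.12 (-0.25 to 0.49). Cebpd, which acts beside Cebpb, differed by -0.23 over its named transcripts and by 0.052 with the unnamed ones. Srebf1, which drives lipid synthesis genes, differed by -0.075 (-0.43 to 0.28), and Klf4, an early inducer of Cebpb, by -0.062 (-0.39 to 0.27). Of 22 regulators that promote fat cell formation, 18 were tested and 7 lay above 0, with a median of -0.037. Their differences ran from -0.31 for Stat5a to 0.29 for Zfp423 (-0.21 with the unnamed transcripts added).

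Regulators that hold cells in the preadipocyte state did not pass the test either. Dlk1, whose product blocks differentiation, had 955, 945, 903, 989 and 644 FPKM in controls and 967, 874, 903, 917 and 751 with QpE. Replicate 5 was lowest in both groups, and the difference of 0.0031 had an interval of -0.28 to 0.29. Of 19 tested regulators that oppose fat cell formation, 9 were above 0, the median was -0.012, and all 19 had an interval inside 2-fold. Their differences ran from -0.32 for Wnt6 to 0.13 for Twist2. Wnt6, a secreted Wnt ligand, had 3.65, 4.1, 3.63, 2.84 and 4.27 FPKM in controls and 2.68, 2.45, 2.38, 3.36 and 2.9 with QpE. These groups overlapped, and Wnt6 did not pass after adjustment (unadjusted p = 0.0251 and adjusted p = 1.00 in limma).

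Lipid storage genes showed no shared direction. Fasn, fatty acid synthase, had 39.6, 38.7, 38.2, 43.6 and 39.6 FPKM in controls and 42.2, 40.7, 37.6, 38.3 and 46.1 with QpE, a difference of 0.034 with the narrow interval -0.11 to 0.18. Acaca and Acacb encode the acetyl-CoA carboxylases of the mouse, relatives of the enzyme that the herbicide blocks in plants. For Acaca the named transcripts gave 5.64, 0.138, 1.14, 2.66 and 6.95 FPKM in controls and 5.86, 4.49, 0.42, 3.99 and 0.266 with QpE. Those values scatter over a wide range in both groups. With its unnamed transcripts the gene had 11.5, 12, 12, 13.8 and 13.7 FPKM in controls and 12.9, 12.6, 8.66, 12 and 12 with QpE, and the difference went from -0.10 (-1.59 to 1.39) to -0.12 (-0.35 to 0.11). Acacb was near 1.34 FPKM in controls and differed by 0.031 (-0.30 to 0.36). In the fatty acid and triglyceride synthesis list 7 of 19 tested genes were above 0 and the median was -0.0027, with differences from -0.71 for Lpin2 (-0.089 with the unnamed transcripts added) to 0.10 for Mlycd. The count above 0 was 11 of 19 under TPM or median-ratio scaling, under which the median of all rows went from -0.013 to 0.0050 and -0.0015.

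Adipocyte genes varied more between cultures of a group than most lists. Of 18 tested, 6 were above 0 and the median was -0.064, and 9 had an interval inside 2-fold. Fabp4 had 56.3, 42.8, 43.2, 62.2 and 99.2 FPKM in controls and 35.3, 43.9, 81.1, 40.5 and 91.7 with QpE, with replicate 5 highest in both groups. Its difference was -0.090 (-0.80 to 0.62). Cd36, a fatty acid transporter, had 7.53, 7.52, 3.0, 2.69 and 11.6 FPKM in controls and 5.48, 5.82, 4.37, 0.0353 and 0.12 with QpE over its named transcripts. Its 2 lowest values were QpE replicates 4 and 5, but with unnamed transcripts added these cultures had 2.56 and 6.54 FPKM and the difference went from -1.12 to -0.30. Agpat2, of phospholipid and triglyceride synthesis, had the highest difference of the list at 0.92 (0.14 with the unnamed transcripts added). Plin1, which coats lipid droplets, differed by 0.17, and Cfd, the adipokine adipsin, by -0.31. Of the thermogenic list 2 of 10 genes were tested, Kcnk3 (-0.53) and Gk (-0.023).

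PPAR targets can respond within hours to a ligand of these receptors. Angptl4, a lipase inhibitor and PPAR target, had 32.3, 45.8, 32.2, 61 and 71.7 FPKM in controls and 53, 37.7, 104, 15.8 and 69.9 with QpE. QpE replicates held both the highest value and the lowest, and the interval of the difference (0.033, -0.98 to 1.05) reached 2-fold. Pdk4, which restrains glucose oxidation, differed by 0.13 (-0.33 to 0.58), Plin2, a lipid droplet protein, by -0.10 (-0.44 to 0.24), and Cpt1a, which admits fatty acids to mitochondria, by 0.10 (-0.34 to 0.55). Of 18 tested PPAR targets and fatty acid oxidation genes, 9 were above 0, with a median of -0.0097, a lowest value of -0.26 for Acot2 and 16 intervals inside 1.5-fold. In the peroxisome list 7 of 22 were above 0, with a median of -0.021 and differences from -0.85 for Pex16 (-0.30 with the unnamed transcripts added) to 0.32 for Pex11a (0.026 with the unnamed transcripts added).

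Genes of xenobiotic sensing and metabolism were examined next. Cyp1b1, a cytochrome P450 induced through the aryl hydrocarbon receptor, had 69.4, 73.3, 118, 176 and 88.5 FPKM in controls and 141, 144, 87.1, 79.5 and 159.8 with QpE. All QpE values lay inside the control range, with replicates 1, 2 and 5 above 4 of the 5 controls. The difference of 0.25 became 0.17 with the unnamed transcripts. Tiparp, another target of that receptor, differed by 0.25 (-0.32 to 0.83). Ugt1a6a, a glucuronosyltransferase, had 0.227, 0.237, 0.507, 12 and 4.91 FPKM in controls and 42, 27.5, 31.4, 34.7 and 1.29 with QpE. Control replicates 4 and 5 were above QpE replicate 5. The difference of 2.83 had an interval of 0.71 to 4.96 and an adjusted p of 1.00 in limma, while the whole locus, which also holds its near-identical relatives with shared exons, differed by 0.044. Of the 7 receptor targets tested, 3 were above 0, with a median of -0.073 that was 0.074 with the unnamed transcripts added. The lowest was -0.39 for Arnt (-0.13 with the unnamed transcripts added). Esterases and other enzymes that handle xenobiotics gave 7 of 17 above 0 and a median of -0.030, with differences from -0.45 for Gsta4 (0.058 with the unnamed transcripts added) to 0.24 for Abcc1. Among NRF2 antioxidant targets 9 of 18 were above 0 (13 of 18 under TPM scaling), the median was -0.00057, and differences ran from -1.04 for Sqstm1 (-0.21 with the unnamed transcripts added) to 0.29 for Pgd (0.0012 with the unnamed transcripts added). Nqo1, a quinone reductase, had 49, 52, 86.1, 91.5 and 53 FPKM in controls and 46.2, 46.5, 80.2, 94.5 and 49.9 with QpE. Replicates 3 and 4 were highest in both groups and the difference was -0.076 (-0.66 to 0.51). Hmox1, heme oxygenase, differed by 0.15 (-0.16 to 0.47).

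Some lists given further on lay mostly below 0, such as interferon-stimulated (12 of 14) and oxidative phosphorylation genes (19 of 26). In 3 lists a large majority of members lay above 0, with small medians. The first was the ATF4 integrated stress response, in which 15 of 19 tested genes were above 0 with a median of 0.16, beside 45.7% above 0 and a median of -0.013 over all rows. No member had an unadjusted p under 0.05, and 12 of 19 were above 0 by each gene's most abundant transcript. Atf4, the transcription factor of that response, had 118, 127, 117, 166 and 118 FPKM in controls and 129, 145, 169.7, 126 and 167 with QpE, so that control replicate 4 stood among the highest QpE cultures. Its difference was 0.19 (-0.086 to 0.46). Trib3, a pseudokinase induced by ATF4, had 4.44, 2.98, 3.98, 4.82 and 0.775 FPKM in controls and 3.53, 3.74, 5.76, 4.16 and 5.06 with QpE. Its difference of 0.41 rests on control replicate 5, and was 0.17 with the unnamed transcripts added. Asns, asparagine synthetase, differed by 0.18 (-0.30 to 0.65), Phgdh, of serine synthesis, by 0.28, Slc7a5, an amino acid transporter, by 0.32, and Ddit3, which encodes CHOP, by -0.10 (-0.35 to 0.15). Cebpg was lowest, at -0.16.

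Cholesterol synthesis and uptake was the second, with 18 of 21 tested genes above 0 and a median of 0.089. The summed level of the list was 728 to 817 FPKM in controls and 815 to 902 with QpE, overlapping at the edge. Idi1, isopentenyl diphosphate isomerase, had 29, 36.7, 30.9, 42.6 and 40.2 FPKM in controls and 40.2, 45.8, 41.7, 39.9 and 47.2 with QpE. Control replicates 4 and 5 lay inside the QpE range, and Idi1 had the highest difference of the list, 0.27 (0.021 to 0.51). Msmo1, a sterol oxidase, had 61.8 ± 5.46 FPKM in controls and 69.8 ± 5.02 with QpE (SD, n = 5), and Hsd17b7, of the same pathway, had 22.8 ± 1.91 and 26.7 ± 1.45. These were the 3 of 21 tested members with an unadjusted p under 0.05 (adjusted p = 1.00 in limma for each), beside 1.29% of all rows higher at that level. The difference of Hsd17b7 went from 0.22 to -0.018 with its unnamed transcripts. Hmgcs1, the synthase that makes HMG-CoA, had 87.2, 111, 104, 82.6 and 93.3 FPKM in controls and 116, 121, 98.1, 114 and 98.9 with QpE. Its difference of 0.20 (-0.013 to 0.41) was 0.088 with unnamed transcripts. The lowest difference of the list was -0.38 for Dhcr7 (0.067 with the unnamed transcripts added).

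The third was the list of SRF and YAP targets, genes of the contractile cytoskeleton and of cell spreading, with 12 of 14 above 0 and a median of 0.16. No member had an unadjusted p under 0.05. The summed level was 1160 to 2031 FPKM in controls and 1402 to 2016 with QpE, wholly inside the control range. Between controls the mean log2(FPKM + 1) of the list had an SD of 0.36, larger than that median. Ctgf, a secreted YAP target, had 7.98, 0.401, 18.5, 28.1 and 6.32 FPKM in controls and 8.19, 8.44, 31.1, 28.9 and 11.3 with QpE. Replicates 3 and 4 were highest in both groups, and the difference of 0.86 had an interval of -0.86 to 2.58. The lowest value was -0.19 for Flna (0.073 with the unnamed transcripts added). QpE libraries were estimated to be deeper than controls (a mean of 13.8 against 11.6 M read pairs), and the part of depth in these small differences was not tested.

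**Figure D2:**
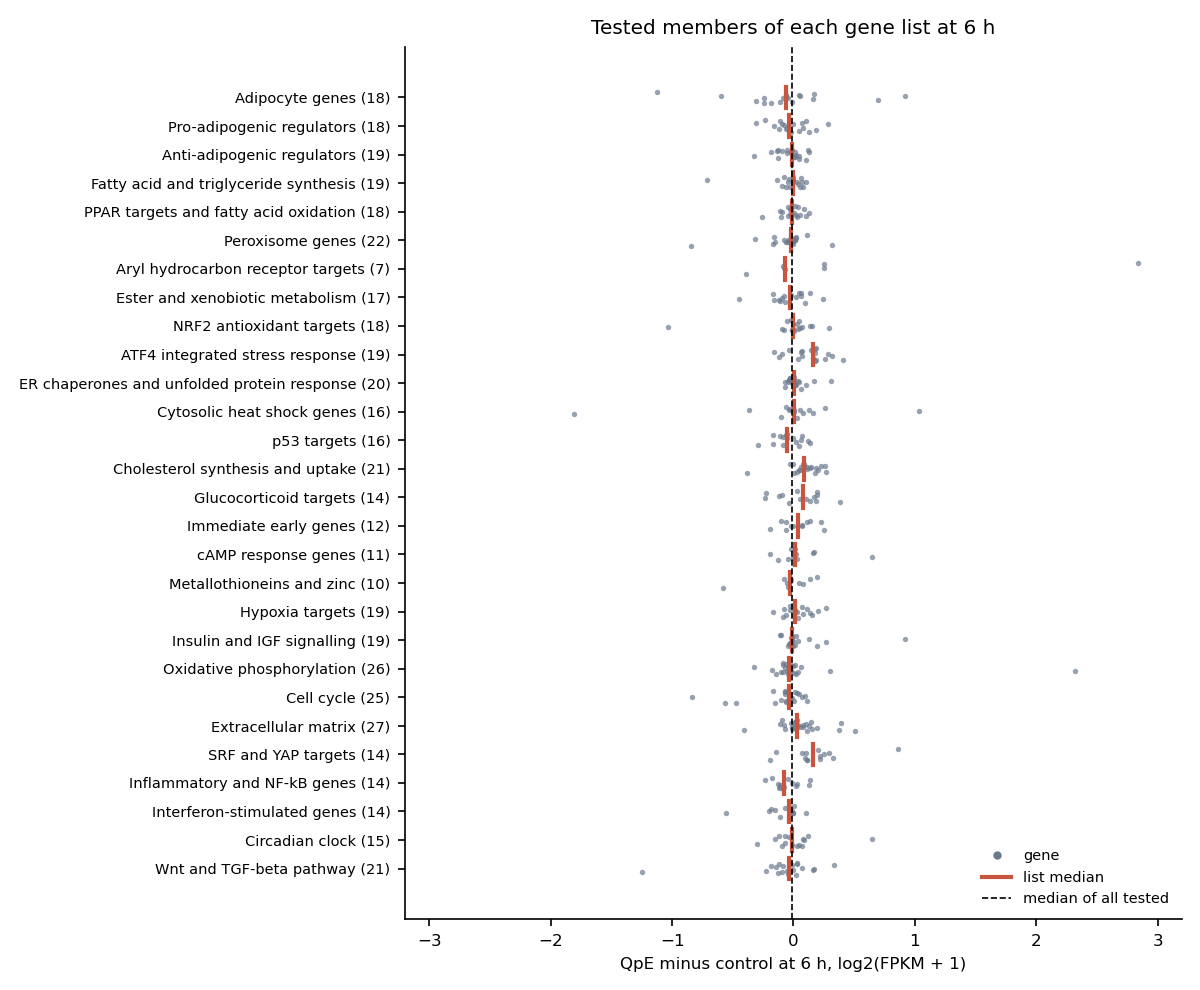
Difference of QpE from control at 6 h on the log2(FPKM + 1) scale for each tested member (grey points, spread vertically for view) of the pathway lists with at least 5 tested genes (cell type marker lists left out), with the number tested in brackets, the list median in red and the median of all tested rows (-0.013) dashed. The medians of these lists run from -0.082 to 0.16.

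Other stress and hormone responses had medians within 0.1 of 0. ER chaperones and unfolded protein response genes gave 11 of 20 above 0 and a median of 0.0031, all 20 intervals lay inside 2-fold, and differences ran from -0.073 for Dnajb11 to 0.31 for Hyou1 (0.040 with the unnamed transcripts added). Cytosolic heat shock genes gave 9 of 16 above 0 with a median of 0.0019. Hspa1a, an inducible HSP70, had 2.96, 3.27, 2.51, 3.29 and 2.84 FPKM in controls and 11.3, 2.14, 7.45, 9.49 and 9.27 with QpE. QpE replicate 2 was below every control and the other 4 above, and without that culture the difference went from 1.03 to 1.38 and was called (adjusted p = 0.0151 in limma). Hspa1b, its near-identical copy, whose reads cannot be surely told from those of Hspa1a, had 23.4 ± 2.29 FPKM in controls and 18.1 ± 2.93 with QpE (SD, n = 5), a difference of -0.36 in the other direction. Hspa8, the constitutive HSC70, was the lowest of the list at -1.81 over its named transcripts. Its whole locus, which holds 4 named genes, differed by -0.19. In the p53 list 6 of 16 were above 0, the median was -0.054 (0.0064 with unnamed transcripts), and differences ran from -0.29 for Bbc3 to 0.14 for Gadd45g. Metallothionein and zinc genes gave 4 of 10 above 0 and a median of -0.025, with the lowest value at -0.58 for Slc39a7. Mt1 differed by 0.13 (-0.48 to 0.75) and Mt2 by 0.19 (-0.58 to 0.96).

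Glucocorticoid targets, which dexamethasone would be known to induce, gave 9 of 14 above 0 and a median of 0.079. Tsc22d3, which encodes GILZ, had 18, 14.4, 13.2, 13.6 and 16.4 FPKM in controls and 16.5, 20.9, 13.1, 12.7 and 16.5 with QpE. Its values overlapped and differed by 0.057 (-0.26 to 0.37). The list ran from -0.23 for Cebpd (0.052 with the unnamed transcripts added) to 0.38 for Errfi1. Per1, a clock gene that glucocorticoids induce, had 7.98, 8.69, 2.75, 2.43 and 2.49 FPKM in controls and 3.56, 4.5, 3.59, 2.7 and 5.05 with QpE, and its difference went from -0.12 to 0.32 (-0.073 to 0.70) with the unnamed transcripts. The circadian list had a median of -0.015, with differences from -0.30 for Nr1d1 to 0.65 for Per2 (0.26 with the unnamed transcripts added). Immediate early genes gave 6 of 12 above 0 with a median of 0.035, from -0.20 for Fos to 0.25 for Fosl1, and Nr4a1, an orphan nuclear receptor, differed by 0.16 (-0.55 to 0.87). Genes that respond to cyclic AMP gave 6 of 11 above 0 and a median of 0.014, with the lowest value at -0.19 for Crem (0.0080 with the unnamed transcripts added).

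Growth, metabolism and tissue structure lists also stayed near the median of all rows. Cell cycle genes gave 7 of 25 above 0, with a median of -0.035 and differences from -0.84 for Bub1 (-0.043 with the unnamed transcripts added) to 0.11 for Ccnd1. Mki67, a marker of dividing cells, had 7.04, 8.09, 6.85, 10.2 and 11.9 FPKM in controls and 7.66, 0.278, 8.45, 10.7 and 11.9 with QpE. QpE replicate 2 alone was near 0, and with unnamed transcripts that culture had 7.85 FPKM. Pcna, the replication clamp, was the 1 member with an unadjusted p under 0.05 (adjusted p = 1.00 in limma), and its difference went from -0.57 to -0.13 with unnamed transcripts. Oxidative phosphorylation genes gave 7 of 26 above 0 and a median of -0.034, with the lowest difference at -0.33 for Ndufv1 (0.043 with the unnamed transcripts added). Insulin and IGF signalling gave 7 of 19 above 0 (13 of 19 under TPM scaling) and a median of -0.010, from -0.11 for Irs1 to 0.92 for Igfbp6 (0.069 with the unnamed transcripts added). Hypoxia targets gave 12 of 19 and 0.013, from -0.17 for Kdm3a to 0.27 for Egln3.

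Extracellular matrix genes gave 18 of 27 above 0 and a median of 0.031. Col1a1, a chain of type I collagen, had 936, 936, 668, 572 and 644 FPKM in controls and 972, 942, 601, 646 and 734 with QpE. Replicates 1 and 2 were highest in both groups, and the difference was 0.055 (-0.37 to 0.48). Dcn, the proteoglycan decorin, differed by -0.023 (-0.26 to 0.21). The list ran from -0.41 for Col1a2 to 0.50 for Col6a3 (0.083 with the unnamed transcripts added). The whole locus of Col1a2, which holds 2 named genes, differed by -0.015. Wnt and TGF-beta pathway genes gave 7 of 21 above 0 and a median of -0.040, with the lowest difference at -1.25 for Lrp5 (0.25 with the unnamed transcripts added). Inflammatory genes gave 4 of 14 above 0 with a median of -0.082, from -0.23 for Saa3 to 0.14 for Lcn2. Interferon-stimulated genes gave 2 of 14 above 0 (5 of 14 under TPM or median-ratio scaling) with a median of -0.039, from -0.56 for Ifit3 (-0.23 with the unnamed transcripts added) to 0.11 for Usp18. Over all lists, 482 of 589 genes were tested and 0 passed. At an unadjusted p under 0.05, 8 of the 482 were higher and 5 lower, beside 1.29% and 1.73% of all rows. An interval inside 2-fold was found for 427 (88.6%), beside 87.8% of all named genes tested. Of the 482 genes, 227 lay above 0 (47.1%). Under TPM scaling the medians of the anti-adipogenic, fatty acid synthesis, PPAR, NRF2, insulin and circadian lists changed sign, each staying within 0.02 of 0.

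**Figure D3:**
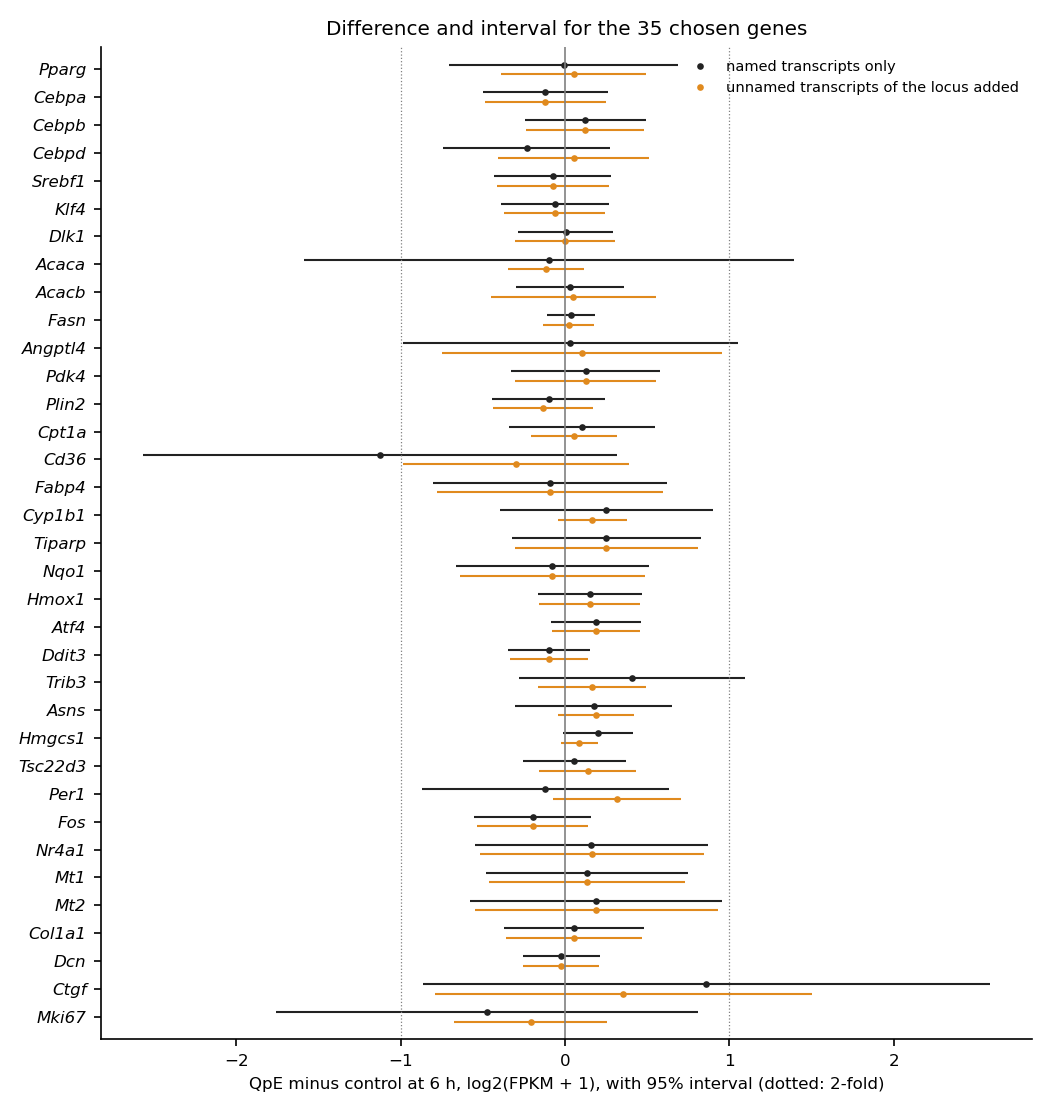
Difference of QpE from control at 6 h for the 35 chosen genes with its 95% interval, on the log2(FPKM + 1) scale, from named transcripts only (black) and with the unnamed transcripts of the locus added (orange). Intervals lie inside a 2-fold change (dotted lines) for 29 genes in black and 34 in orange, and those of Acaca, Cd36 and Mki67 narrow most visibly.

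Transcripts within a gene were also tested singly. limma on 21738 transcripts called 3 higher (0.0138%) and 2 lower (0.0092%). The largest was in Gpx1, glutathione peroxidase 1, a selenoprotein that reduces peroxides (chr9:108338903-108340343, GRCm38). Its exon 2 begins at either of 2 acceptor sites, 3 bases apart and within the coding sequence, in the transcripts called short and long form here. The junction of exons 1 and 2 is shown because the called transcript differs there, with the 3 bases found only in the long form in capitals (GENCODE M21 transcripts, strand +, chr9:108339547-108339794 with the intron left out).
Gpx1 long form: ttcggacaccagGAGaatggcaagaatgaa
Gpx1 short form: ttcggacaccagaatggcaagaatgaa

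The short form (ENSMUST00000191997) had 5.85, 0, 0, 0 and 0 FPKM in controls and 154, 98.5, 139, 145 and 164 with QpE, and it rose by 6.57 ± 0.52 on the log2(FPKM + 1) scale (SE, n = 5; adjusted p = 0.00233 in limma). Every QpE culture was far above every control. In another fit, with same-numbered cultures as pairs, none of the 5 called transcripts passed (adjusted p from 0.159 to 0.657 in limma). The short form also starts 189 bases later and ends 93 earlier than the long form. The long form (ENSMUST00000082429) had 157, 209.5, 254, 200.4 and 209 FPKM in controls and 112, 88.9, 141, 144 and 91.5 with QpE, lower in all QpE cultures, though it did not pass (adjusted p = 0.843 in limma). Over the whole gene the fragment level, which is FPKM times transcript length in kilobases summed over transcripts (FPM), was 173 to 272 FPM in controls and 227 to 269.7 with QpE, so the groups overlapped. Outside the 6 h cultures the short form was at 0 in all 5 controls at 24 h and at 12 days, while QpE cultures had 5.0, 0, 0, 0 and 97.5 FPKM at 24 h and 1.77, 16.7, 77.6, 23.6 and 1.92 at 12 days. At 24 h, 3 QpE cultures were thus at 0 like the controls and 1 held nearly all of the signal. In QpE replicate 2 at 6 h a further transcript of Gpx1 with 1 exon took 61.5 FPKM.

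The second called transcript belongs to Alad, aminolevulinate dehydratase, an enzyme of heme synthesis. ENSMUST00000137448 keeps the 600 base intron between exons 7 and 8 of the coding transcript ENSMUST00000030090. The 30 bases at that place are given for both on the minus strand of chr4 (GRCm38, from GENCODE M21), with the intron in capitals, the coding form spanning chr4:62510909-62511538 with the intron left out and the other form chr4:62511509-62511538.
Alad coding form: ggacttggcaacagggtctctgtgatgagc
Alad retained intron form: ggacttggcaacaggGTATAGGCTGGAGGG

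The form with the intron had 0.23, 0.20, 0.207, 0.376 and 0.145 FPKM in controls and 6.18, 5.54, 6.08, 5.26 and 8.8 with QpE, and it rose by 2.57 ± 0.16 (SE, n = 5; adjusted p = 0.000542 in limma). The coding form had 21.2, 22.9, 23.7, 22.9 and 26.4 FPKM in controls and 16.2, 18.6, 18.5, 14.9 and 17.1 with QpE, a set wholly below the controls. It did not pass the test (adjusted p = 0.745 in limma). The whole-gene fragment level was 28.3 to 32.1 FPM in controls and 30.9 to 36.2 with QpE. At 24 h the form with the intron had 9.3, 0.0919, 0.257, 0.362 and 4.91 FPKM in controls and 0.206, 6.79, 0.168, 0.254 and 6.21 with QpE. High and low cultures occurred in both groups there, as they did at 12 days, where it ran from 0.176 to 16.8 in controls and from 0.235 to 16.8 with QpE. The third called rise was an unnamed transcript at Map1s, a microtubule-associated protein gene, with 0, 0, 0.0979, 0 and 0.0833 FPKM in controls and 3.42, 2.45, 3.68, 4.3 and 7.41 with QpE (adjusted p = 0.0128 in limma). In the locus of Clu, the chaperone clusterin, an unnamed transcript had 1.81 to 3.92 FPKM in controls and 0.00847 to 0.171 with QpE and fell (adjusted p = 0.0191 in limma). A transcript of Atxn7l2, an ataxin family gene, had 1.31 to 3.4 FPKM in controls and 0 to 0.223 with QpE and also fell (adjusted p = 0.0287 in limma). The Clu call was lost without the filter on low values (adjusted p = 0.0563 in limma) and with any 1 QpE culture left out (adjusted p from 0.0540 to 0.170 in limma). The Atxn7l2 call was lost without the filter (adjusted p = 0.0916 in limma), with a pseudocount of 0.1 (adjusted p = 0.0832 in limma) and with any 1 QpE culture left out (adjusted p from 0.0724 to 0.212 in limma). Each called transcript met the level for testing through the 5 cultures of 1 group, the one in which it was high. The Gpx1 short form also reached 1 FPKM in control replicate 1 (5.85). Whole-locus fragment levels overlapped between the groups at Map1s, Clu and Atxn7l2.

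The 1 gene row called was likewise part of a divided locus. It sums unnamed transcripts that share an assembled locus with Zfp652, a zinc finger repressor, and Phospho1, a phosphatase (chr11:95712830-95772353). The row, assembled as MSTRG.4032, had 0.246, 0.0360, 0.342, 0.309 and 0.332 FPKM in controls and 3.36, 2.71, 2.53, 3.65 and 3.48 with QpE, and it rose by 1.72 ± 0.13 (SE, n = 5; adjusted p = 0.00216 in limma). It reached the level for testing through the QpE cultures alone, the group in which it was high. Zfp652 itself had 6.1, 6.23, 5.05, 6.06 and 5.8 FPKM in controls and 1.92, 3.0, 2.99, 0.719 and 1.02 with QpE, the groups again apart but in the other direction (-1.31 ± 0.24, adjusted p = 1.00 in limma). Counted over the whole locus, the fragment level was 20.4, 17.9, 19.9, 20.5 and 21.4 FPM in controls and 41.1, 37.5, 36.7, 41.9 and 40.7 with QpE, which in a fit of 12739 loci was the 1 call (0.00785%), with a rise of 0.95 ± 0.069 (adjusted p = 0.000294 in limma). At 24 h the whole-locus values were 39.8, 21, 48.1, 39.9 and 41.8 in controls and 46.7, 41, 17.7, 14.2 and 23.6 with QpE, so both groups then held high and low cultures. The call at MSTRG.4032 was lost in limma with a pseudocount of 0.1 (adjusted p = 0.0895) and with the spread of all 30 libraries (adjusted p = 1.00). It was also lost in limma by the most abundant transcript (adjusted p = 0.674) and with same-numbered cultures fitted as pairs (adjusted p = 0.218). In the fit of whole-locus fragment levels, such pairs gave 1 call, and leaving out any 1 culture gave 1 to 2. Whole loci summed as FPKM, without weighting by transcript length, gave 0 calls among 12299.

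**Figure D4:**
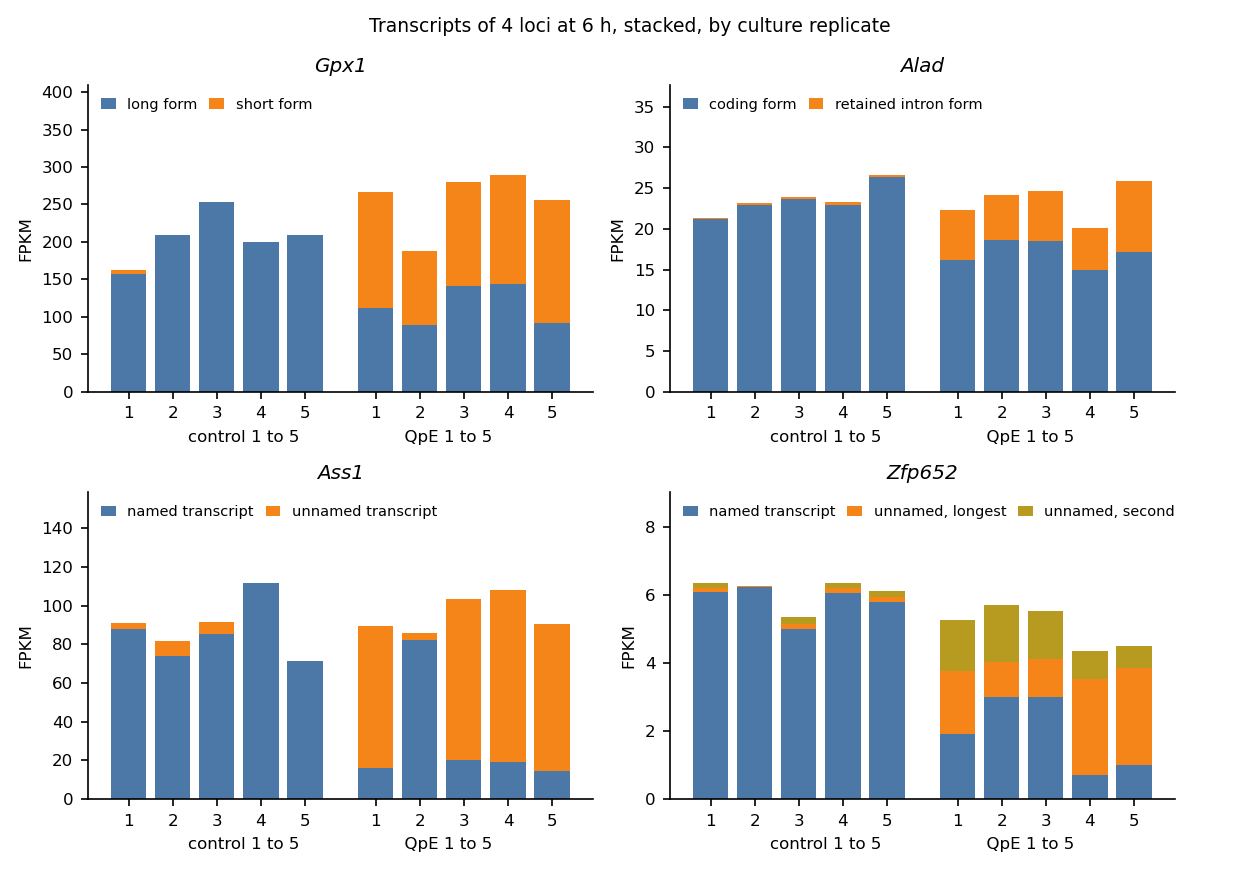
FPKM of the transcripts of 4 loci in each culture at 6 h, stacked, with culture replicates 1 to 5 of the control group on the left of each panel and of the QpE group on the right. The orange forms are low in all controls (at most 7.37 FPKM, for Ass1) and higher in all or most QpE cultures. The stacked FPKM totals of all 4 loci overlap between the groups. The fragment level of the whole Zfp652 locus does not (17.9 to 21.4 FPM in controls and 36.7 to 41.9 with QpE).

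The named genes with the smallest unadjusted p were examined in the same way. These were Gm12693, Ece1, Hspa14, Prmt5, Lrrc14 and Gpx1 among those higher with QpE, and Zfp652, Fam96b, Diaph1, Trappc6a, Ass1 and Meis2 among those lower, each with an adjusted p of 1.00 in limma. Ass1, argininosuccinate synthase of arginine synthesis, had 89.1, 75.3, 86.5, 113 and 73.5 FPKM in controls and 16.3, 84.2, 21.4, 20.4 and 14.9 with QpE. QpE replicate 2 sat with the controls. An unnamed transcript of the same locus had 2.93, 7.37, 6.53, 0 and 0 FPKM in controls and 73.4, 3.61, 83.1, 88.7 and 76 with QpE, high where the named one was low, and with it the difference went from -1.77 to 0.094. Ece1, endothelin-converting enzyme, had 0.545, 0.718, 7.87, 0.0658 and 0.123 FPKM in controls and 6.4, 7.84, 8.22, 11.8 and 8.84 with QpE, and its difference went from 2.28 to 0.025 when unnamed transcripts were added. Prmt5, an arginine methyltransferase, went from 0.96 to 0.045, Diaph1, an actin nucleator, from -2.26 to -0.034, and Fam96b, of iron-sulfur protein assembly, from -0.69 to -0.27. Meis2, a homeobox factor, differed by -1.56 in named transcripts and by -0.039 over its locus, which also counts another named gene. Gm12693, a predicted gene, had 3.96, 3.58, 4.48, 4.74 and 4.88 FPKM in controls and 7.8, 5.43, 6.34, 8.17 and 7.04 with QpE, a difference of 0.57. Its locus level is that of its 1 transcript, so the whole locus gave no separate check. Trappc6a, of vesicle tethering, had 23.9, 25.8, 25.5, 24 and 25.6 FPKM in controls and 21.9, 22.6, 19.6, 20.4 and 20.6 with QpE. Its small difference went from -0.24 to -0.21 over its locus. For both genes, which were picked for a small p in these same libraries, the groups stood apart without passing the test. Hspa14 (0.26), an HSP70 family member, Lrrc14 (0.31) and Gpx1 (0.38) came to 0.050, -0.020 and 0.15 over their loci. The locus of Hspa14 also counts another named gene. Across 11652 named genes, adding unnamed transcripts moved the difference of 317 (2.72%) by over 0.5, and 100 genes by name but 46 after the addition differed by over 1 on the log2 scale, 43 of them the same genes.

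Single libraries decided some of these values. Ece1 was called without control replicate 3, Ass1 and Hspa1a without QpE replicate 2, Diaph1 without QpE replicate 3 and Meis2 without QpE replicate 4, each time the culture of its group whose value lay nearest the other group. The call at MSTRG.4032 remained when any 1 control was left out, and the row was not tested without a QpE culture because it then fell short of 5 libraries at 1 FPKM.

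The response at 6 h was set against that at 24 h and 12 days, each time against its own 5 controls. limma called 0 of 17003 gene rows (0%) as different between the 24 h and the 6 h effect, with 754 at an unadjusted p under 0.05 where 1 in 20 would be 850. Between 12 days and 6 h it called 217 higher (1.27%) and 236 lower (1.38%) of 17081, or 111 and 362 under TPM scaling. The total ran from 180 to 615 with any 1 culture left out and was 912 with unnamed transcripts added. Ndufv2, a complex I subunit, had 57.6, 58.8, 60.6, 56.9 and 61.2 FPKM in controls and 60.4, 58.4, 59.1, 62 and 58.7 with QpE at 6 h, nearly level cultures, and its effect at 12 days minus that at 6 h was 0.80 ± 0.10 (SE; adjusted p = 0.00127 in limma). Of 26 tested oxidative phosphorylation genes, 9 had a higher effect at 12 days and 0 a lower one, Cox7b (0.75) and Ndufv1 (0.96) among them. Ero1l, an oxidase of the endoplasmic reticulum, differed by 0.041 (-0.10 to 0.18) at 6 h and by 2.00 at 12 days, and Hspd1, a mitochondrial chaperonin, by 0.079 and 0.84. Both were called, with 12 day minus 6 h effects of 1.96 and 0.77.

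Genes called with a lower effect at 12 days included Wnt receptors and matrix genes. Fzd2, a Wnt receptor, had 32.3, 31.7, 32.6, 27.6 and 30.5 FPKM in controls and 32.6, 28.9, 27.3, 31.9 and 29.8 with QpE at 6 h, and its effect at 12 days minus that at 6 h was -1.23 ± 0.16 on the log2 scale (SE; adjusted p = 0.00127 in limma). Fzd1, another Wnt receptor, differed by -0.0056 (-0.22 to 0.21) at 6 h and -1.54 at 12 days. Twist1, a mesenchymal factor, differed by -0.18 and -1.44, and Lox, which cross-links collagen, by 0.082 and -1.72. The effects of Fzd1, Twist1 and Lox at 12 days minus those at 6 h were -1.53, -1.26 and -1.80, each called. Of 21 tested Wnt and TGF-beta genes 8 had a lower effect and 0 a higher one, and of 27 matrix genes 7 and 0. Dlk1 (-1.68), Col1a1 (-1.92), Lum (-2.36), a small proteoglycan, and Ccnd1 (-0.92), cyclin D1, were also lower in effect at 12 days. None of the 18 tested adipocyte genes was called, although their median was -0.064 at 6 h, 0.39 at 24 h and 0.93 at 12 days.

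**Figure D5:**
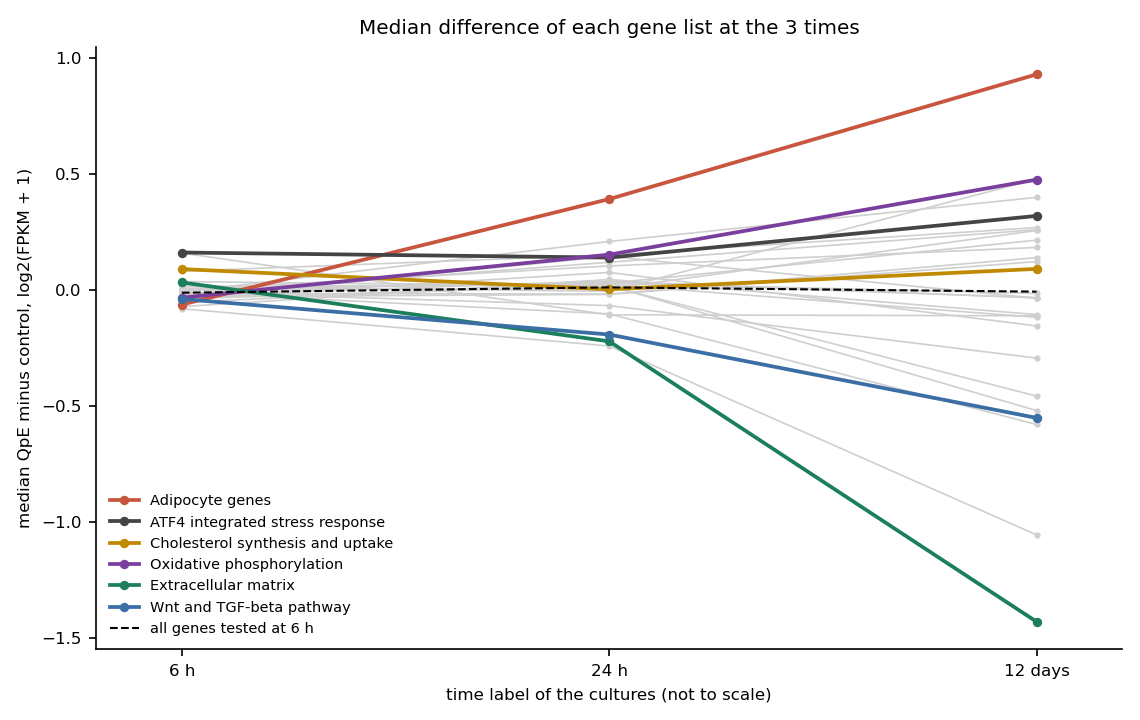
Median difference of QpE from control on the log2(FPKM + 1) scale over the tested members of each pathway list with at least 5 tested genes (cell type marker lists left out) at 6 h, 24 h and 12 days (time axis not to scale), with 6 lists in colour, the others grey and all rows tested at 6 h dashed. At 6 h the medians of these lists lie within 0.17 of 0, and at 12 days they run from -1.43 for extracellular matrix to 0.93 for adipocyte genes.

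The libraries at 6 h were alike in most technical measures. FPKM totals ran from 424736 to 436307 in controls and from 413502 to 432161 with QpE. Mitochondrially encoded genes took 0.418 to 1.83% and 0.233 to 1.03%. Of 6 properties, estimated depth had the lowest p, at 11.6 ± 0.993 M read pairs in controls and 13.8 ± 1.26 with QpE (SD, n = 5; two-sided exact permutation p = 0.0159 over all splits, 0.0952 adjusted over the 6). The other 5 had p from 0.183 to 0.976. Across genes, libraries correlated at r from 0.898 to 0.926, with a mean of 0.909 within controls, 0.910 within QpE and 0.911 between the groups.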

How the data were processed

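The libraries were made from mRNA with a directional kit after the samples were randomised, and were sequenced as paired reads of 75 bases in 1 pool, per the labels' protocols. The authors deposited 1 table of FPKM values for 150146 transcripts in 30 libraries, made with HISAT2 and StringTie on GRCm38, as the submitters' processing notes state without versions or settings. The 11 values just below 0 (lowest -7e-05), in 10 libraries, were set to 0. Transcript FPKM were summed per gene name, and the unnamed transcripts of each assembled locus were summed as a row of their own. Rows with at least 1 FPKM in at least 5 libraries of a comparison were tested by limma 3.58.1 in R 4.3.3 (trend) on log2(FPKM + 1), without a block, with Benjamini-Hochberg adjustment over all rows. The test was tried on simulated data.

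The fragment level of a locus (FPM) is FPKM times transcript length, summed. Depth in read pairs was estimated from the smallest steps of the FPKM of single transcripts and is approximate. Library properties were compared by exact permutation. Named genes are a panel of 35 chosen by role, the 6 smallest p in each direction with a mean of at least 5 FPKM, the extremes of each of 36 lists, every unnamed row or transcript called, and up to 4 list genes a direction with a different effect at 12 days; a few of these genes are not reported here. Gene lists and members were chosen with earlier results of these data known. Alternatives were another pseudocount, filter, scaling, transcript summary, block, library weights, all 30 libraries, and leaving out each culture.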

Additional observations from a re-analysis of the deposited data

Results flagged for a closer look

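Within the 5 cultures of a group at 6 h, 1 value stood far from the other 4 in 34 of 230 groups examined by Dixon's ratio (gap over range above 0.710). The rate of about 1 in 20 by chance holds for values that were not selected. Many genes here were picked as extremes of these same libraries, so the count cannot be set against that rate. The values below are FPKM over named transcripts, each against the range of the other 4 cultures.

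Control replicate 1 was lowest for Zfp423 (0 against 4.08 to 5.4), Acot2 (0 against 1.46 to 2.07) and Bub1 (0.0829 against 4.12 to 4.51). Control replicate 2 was lowest for MSTRG.4032 (0.0360 against 0.246 to 0.342). Control replicate 3 was lowest for Srebf1 (12.8 against 19.8 to 22.4), Stat5a (17.2 against 22.2 to 24.4), Cebpg (5.79 against 17 to 23.8) and Hspa8 (74.5 against 549.7 to 639.9). Control replicate 3 was highest for Ece1 (7.87 against 0.0658 to 0.718) and Col6a3 (50.5 against 5.0 to 9.45). Control replicate 4 was highest for Fasn (43.6 against 38.2 to 39.6), Atf4 (166 against 117 to 127) and Mt2 (66.7 against 18.9 to 26.4). Control replicate 5 was lowest for Klf4 (3.61 against 5.01 to 5.54), Dlk1 (644 against 903 to 989) and Lrrc14 (7.31 against 8.89 to 9.45). QpE replicate 1 was lowest for Stat5a (6.61 against 21.3 to 23.3). QpE replicate 2 was lowest for Mki67 (0.278 against 7.66 to 11.9), Pex16 (0.384 against 6.03 to 8.54), Hspa1a (2.14 against 7.45 to 11.3), Dhcr7 (3.75 against 19.7 to 22.7), Lrp5 (0.458 against 43.3 to 62.8) and Kcnk3 (0 against 3.39 to 6.38). QpE replicate 2 was highest for Ass1 (84.2 against 14.9 to 21.4). QpE replicate 3 was highest for Mt1 (144 against 76.6 to 87.4), Hspa14 (29.2 against 25.2 to 26.1), Diaph1 (8.03 against 0.174 to 0.39) and Errfi1 (52.5 against 23.1 to 28.3). QpE replicate 4 was lowest for Asns (60.3 against 103 to 123) and Mlycd (5.15 against 5.86 to 5.91). QpE replicate 5 was lowest for Lpin2 (1.12 against 1.64 to 1.89), Ugt1a6a (1.29 against 27.5 to 42) and Kdm3a (6.3 against 13.8 to 18.2). QpE replicate 5 also had the most gene rows at 1 FPKM or more (15548 against 15128 to 15176). For Ece1, Ass1, Diaph1 and Hspa1a the culture named here is the one whose omission gave a call. With the unnamed transcripts added, Mki67 in QpE replicate 2 was 7.85 FPKM and Lrp5 92.5.

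The effect of QpE differed between 6 h and 12 days by limma's interaction term for 14 of the named results. On the log2(FPKM + 1) scale the 12 day effect minus the 6 h effect was 0.80 for Ndufv2, 1.96 for Ero1l, 0.75 for Cox7b, 0.77 for Hspd1 and 0.96 for Ndufv1, all with a higher effect at 12 days. It was -1.68 for Dlk1, -1.92 for Col1a1, -0.92 for Ccnd1, -2.36 for Lum, -1.23 for Fzd2, -1.26 for Twist1, -1.53 for Fzd1 and -1.80 for Lox, with a lower effect at 12 days. At MSTRG.4032, beside Zfp652, it was -2.09 (adjusted p = 0.0243 in limma). For Dlk1, a preadipocyte gene, controls and QpE cultures differed by 0.0031 at 6 h, -0.20 at 24 h and -1.67 at 12 days.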

How the results depend on the processing

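Gene rows called at 6 h numbered 0 with the spread of all 30 libraries, a pseudocount of 0.1, a filter of 5 FPKM, the most abundant transcript per gene, whole-locus FPKM or the replicate block, against 1 otherwise (pseudocount 5, no filter, both other scalings, unnamed transcripts joined, library weights, whole-locus FPM). With 1 culture left out they numbered 0 to 3, with Ino80d and Ece1 called without control replicate 3, Btg1 without control replicate 5, Ass1, Erlec1 and Hspa1a without QpE replicate 2, Diaph1 without QpE replicate 3 and Meis2 without QpE replicate 4. Transcripts called numbered 3 without the filter, 0 with the replicate block, and 1 to 8 with 1 culture left out (1 without QpE replicate 5 and 8 without control replicate 5). The Gpx1 short form was called in all 10 of those fits. Without a QpE culture it stayed tested only through control replicate 1 (5.85 FPKM). The Alad form was called in the 5 that left out a control and in none that left out a QpE culture, in which it was not tested. The Map1s transcript was called in 4 (adjusted p = 0.0502 in limma without control replicate 4) and those of Clu and Atxn7l2 in none, being not tested without a control. With the replicate block the adjusted p in limma was 0.218 for MSTRG.4032, 0.159 for the Gpx1 and Alad forms, 0.453 for Map1s and 0.657 for Clu and Atxn7l2.

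Results that differed between 24 h and 6 h numbered 0 to 2 with 1 culture left out (2 without QpE at 24 h replicate 4, Capn1 and an unnamed locus). Between 12 days and 6 h they numbered 161 without the filter, 229 by the most abundant transcript, 912 with unnamed transcripts joined, 876 with the replicate block, 977 by whole-locus FPKM, 1250 by whole-locus FPM, and 180 to 615 with 1 culture left out, lowest without QpE at 6 h replicate 1 and highest without QpE at 12 days replicate 2. Of the 8 genes named by their 12 day result, Ndufv2 fell short by the most abundant transcript (0.53, adjusted p = 0.225 in limma). The whole-locus settings were chosen after seeing the data.

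Replicate numbers were not used as pairs in the main fits. The correlation of same-numbered deviations from the group means was 0.078, 0.057, 0.081, 0.088 and 0.026 for numbers 1 to 5, under 0.1. However, 4 of 5 controls correlated best with their own number. With pairs, gene rows at an unadjusted p under 0.05 at 6 h went from 462 to 560. Rows called between 12 days and 6 h went from 453 to 876. How much spread between same-numbered sets the main fits carry was not tested.

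Zfp652 went from -1.31 by name to a called 0.95 over its locus, which also holds Phospho1. No other named gene passed the threshold after a change of sign under the settings below, and the cause of the sign changes was not tested. With unnamed transcripts joined the difference was 0.054 for Pparg, 0.052 for Cebpd, -0.0015 for Dlk1, 0.32 for Per1, 0.094 for Ass1, -0.21 for Zfp423, 0.058 for Gsta4, 0.067 for Dhcr7, 0.0080 for Crem, 0.043 for Ndufv1, 0.073 for Flna, 0.25 for Lrp5 and -0.022 for Pdgfrb. By whole-locus FPM it was 0.050 for Pparg, 0.016 for Acaca, 0.52 for Per1, -0.020 for Lrrc14, 0.049 for Ass1, -0.010 for Agpat2, -0.20 for Zfp423, 0.040 for Lpin2, 0.056 for Gsta4, -0.057 for Pgd, 0.13 for Dhcr7, 0.080 for Flna, 0.10 for Lrp5, -0.12 for Plin1 and -0.023 for Pdgfrb. By the most abundant transcript it was 0.055 for Srebf1, 0.15 for Per1, 0.0089 for Dcn, -0.84 for Gpx1, 0.31 for Stat5a and -0.11 for Gadd45g. With library weights it was 0.14 for Acaca and 0.14 for Gsta4, and with a pseudocount of 5 it was 0.014 for Pparg. It was, under TPM scaling, 0.012 for Pparg and 0.015 for Fzd1 and, under median-ratio scaling, 0.0050 for Pparg and 0.0074 for Fzd1. Leaving out 1 culture at a time gave ranges that crossed 0 for 31 genes: Acaca -0.49 to 0.24, Acacb -0.048 to 0.10, Angptl4 -0.25 to 0.41, Cd14 -0.47 to 0.14, Cebpa -0.22 to 0.0054, Col1a1 -0.035 to 0.14, Cpt1a -0.018 to 0.25, Dcn -0.065 to 0.023, Dhcr7 -0.52 to 0.063, Dlk1 -0.11 to 0.060, Fabp4 -0.28 to 0.10, Fasn -0.0088 to 0.065, Flna -0.34 to 0.074, Fzd1 -0.063 to 0.060, Gsta4 -1.58 to 0.57, Irs1 -0.28 to 0.048, Kdm3a -0.29 to 0.060, Mki67 -0.70 to 0.13, Mt1 -0.035 to 0.34, Mt2 -0.0064 to 0.49, Nqo1 -0.23 to 0.051, Nr4a1 -0.029 to 0.43, Pdk4 -0.0080 to 0.23, Per1 -0.27 to 0.10, Plin1 -0.018 to 0.42, Plin2 -0.21 to 0.026, Pparg -0.20 to 0.28, Saa3 -0.54 to 0.16, Stat5a -0.40 to 0.016, Tsc22d3 -0.041 to 0.13 and Zfp423 -0.22 to 0.45. It did so for 3 library properties: the difference in gene rows at 1 FPKM or more (-123 to 44.7), in the percent of FPKM in ribosomal RNA (-0.048 to 0.032) and in the 50 highest genes (-0.30 to 0.13).

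FPKM carry no counts, so depth was estimated and no counting interval could be given. With a median half-width of 0.35 on the log2 scale, before adjustment, a typical gene row with 5 cultures a group needed a larger difference to be called. Values by gene name leave out the unnamed transcripts of a locus, and adding these moved 2.72% of tested named genes by over 0.5.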

Other observations

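Several genes varied widely between cultures of the same group at 6 h, and they were chosen here after their values were seen. Fosl1, an AP-1 subunit, had 64.7, 65.6, 117, 196 and 50.0 FPKM in controls and 80.2, 73.3, 176, 122 and 94.6 with QpE. Errfi1, an inhibitor of the EGF receptor, had 17, 18.5, 24.4, 48 and 13.7 and 25.3, 23.1, 52.5, 28.3 and 23.4 FPKM. In both the highest control was replicate 4 and the highest QpE culture replicate 3. Mt2, a metallothionein, had 21.5, 18.9, 26.4, 66.7 and 25.5 and 26, 26.8, 56.8, 35.3 and 25.9 FPKM, and Nr4a1 had 17.4, 17.3, 24.6, 47.9 and 15.9 and 22.2, 19.9, 43.4, 26.5 and 20.1, with the same 2 cultures highest.

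Saa3, an acute phase gene, ran the other way, with 79.6, 61.8, 17.6, 21.8 and 78 FPKM in controls and 66.7, 74.7, 16.5, 11.6 and 66.2 with QpE, lowest in replicates 3 and 4 of both groups. Over the 11652 named genes tested, 904 (7.76%) were highest in control replicate 4 among controls and in QpE replicate 3 among QpE cultures, 1155 (9.91%) in replicate 5 of both, and 193 (1.66%) in control replicate 1 and QpE replicate 3, the least frequent combination. What these cultures share was not tested.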
